A study of Homo sapiens with 21 samples.

Results

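The HepG2 cell line was compared with the 6 other parental libraries of the series, gene by gene, to find which genes were transcribed above or below every other parental line. HepG2 was represented by 2 libraries, which together with the 6 others made 8 libraries out of 21 in the series, and libraries were taken by their cell line label, with earlier results of these data known. HepG2 comes from liver. The others were PancVB (Panc 03.27, pancreas), HCC4006P1 and HCC4006P2 (both stocks of the lung line HCC4006), HCC827P (HCC827, lung), UWB1289 (UWB1.289, ovary) and IGROV-1 (ovary), with 1 library each. The HCC4006 stocks are counted separately among the 6 other lines below. All are established in vitro cancer cell lines that the labels call sensitive, with no drug. HepG2 was grown in William's E medium and the others in RPMI 1640 glutaMAX, all with fetal bovine serum and penicillin-streptomycin, so that HepG2 and its medium cannot be told apart. HepG2 is also 1 line, so every difference given here is between that line and a set of others, not between liver and other tissues. A further HCC4006P1 library, replicate 1, lacks counts for part of the genome and was not used here.

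Hepatocytes, the main cells of the liver, make most plasma proteins, assemble lipoproteins, form bile acids from cholesterol, detoxify ammonia as urea and oxidise drugs. A set of transcription factors (HNF4A, the FOXA and C/EBP families and nuclear receptors) keeps this programme running, in part by binding close to the start of albumin, apolipoprotein and clotting factor genes. HepG2 is widely used as a liver cell model, and hepatoblastoma and hepatocellular carcinoma cells often also make fetal liver proteins such as alpha-fetoprotein.

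Polyadenylated RNA was sequenced, and each deposited file holds the raw counts of 1 library. The HepG2 libraries held 36639473 and 34847911 counts on genes, and the others between 11621919 (UWB1289) and 27485701 (IGROV-1). Levels are given as CPM, the count of a gene scaled to a common library total on genes. A gene was taken as detected from 3 counts, which is 0.0819 and 0.0861 CPM in HepG2 and 0.109 to 0.258 CPM in the others, and this limit covers counting error only. The 2 HepG2 libraries correlated with each other over the tested genes at r = 0.986, against 0.754 to 0.791 with the other lines and 0.816 to 0.933 among the other lines, which describes these libraries only. HepG2 had more of its counts in its 10 most counted genes (11% and 10.1%) than the others (5.42% to 9.23%). Both HepG2 libraries carry the same replicate number in 1 of the labels. Whether they come from separate cultures is therefore unknown, and p-values measure the spread between these libraries and lines. In bulk RNA of this kind, fewer cells of a type and less RNA per cell cannot be told apart.

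The edgeR quasi-likelihood test compared 18256 genes that passed a filter on low counts. A gene could pass it through the HepG2 libraries alone. The shares given for gene lists below are of tested members, leave out members low in all libraries and can be raised by this filter. At a Benjamini-Hochberg adjusted p under 0.05, 1189 genes (6.51%) were higher and 745 (4.08%) lower in HepG2. Summing the 2 HepG2 libraries to 1 sample left 394 higher (1.96%) and 101 lower (0.503%) among 20072 tested genes. DESeq2 called 1706 higher (9.66%) and 2651 lower (15%). Both HepG2 libraries lay above every other library in 2291 genes (12.5%) and below every other library in 4085 genes (22.4%), of which 1182 and 741 were also called. With TMM library sizes these counts were 3288 above and 2873 below, so that the larger side depends on the scaling. The median log2 difference over all tested genes was −0.29 on the log2(CPM + 1) scale and −0.07 after TMM scaling, and the values of gene groups below are to be read beside it. Log2 differences are HepG2 minus the others on that scale, with their standard error, and understate the change of low genes. Among the calls, 61.5% were higher in HepG2 with TMM scaling, but 46.4% with total count scaling and 39.2% in DESeq2. The genes called higher took 23.9% and 22.0% of all counts in HepG2, where the other lines had between 3.15% and 3.67% in the same genes. In 426 of the genes called higher every other line was below 1 CPM, and in 453 of those called lower both HepG2 libraries were.

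The genes with the largest fitted differences upward were mostly in plasma protein genes. Albumin (ALB, ENSG00000163631, hg19 chromosome 4, 74262831 to 74287199, plus strand), the main carrier protein of plasma, was at 16105 and 8261 CPM in the 2 HepG2 libraries and at 0 to 0.172 CPM in the other lines, a log2 difference of 13.44 ± 0.48 (edgeR adjusted p = 2.91e-05). Alpha-fetoprotein (AFP, chromosome 4, 74296855 to 74321891), its fetal relative, was at 5026 and 2184 CPM and had no count in any of the other 6, so that it was at least 8462-fold higher against a floor of 3 counts per library (edgeR adjusted p = 0.0021). Both genes differed between the HepG2 libraries as well, with replicate 1 the higher in each. Apolipoprotein B (APOB), the scaffold of low density lipoproteins, stood at 16340 and 9550 CPM against at most 0.344 CPM elsewhere, a log2 difference of 13.52 ± 0.39 (edgeR adjusted p = 6.05e-05). AHSG, the plasma glycoprotein fetuin-A, was at 3050 and 2125 CPM against at most 0.154 CPM. APOH, a phospholipid-binding plasma protein, was at 1570 and 1137 CPM against at most 0.0577 CPM. For these genes no other line came near either HepG2 library.

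A further 4 genes of this kind had no count outside HepG2. APOA2, the second protein of high density lipoproteins, was at 665 and 388 CPM, at least 1504-fold higher. ORM1, an acute phase glycoprotein, was at 349 and 643 CPM, at least 1351-fold higher, although its reads may be shared with the near-identical ORM2. ASGR2, a subunit of the receptor that clears glycoproteins from plasma, was at 363 and 421 CPM, at least 1408-fold higher. SERPINA7, the thyroxine-binding globulin, was at 218 and 158 CPM, at least 612-fold higher. The rest of the 12 were PEG3, PGC and UGT2A3. PEG3, an imprinted zinc finger gene, was at 231 and 116 CPM and had no count in the other lines. PGC, the precursor of the stomach protease gastricsin, was at 400.0 and 324 CPM against at most 0.086 CPM. UGT2A3, a glucuronosyltransferase, was at 218 and 495 CPM against at most 0.0577 CPM.

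**Figure D1:**
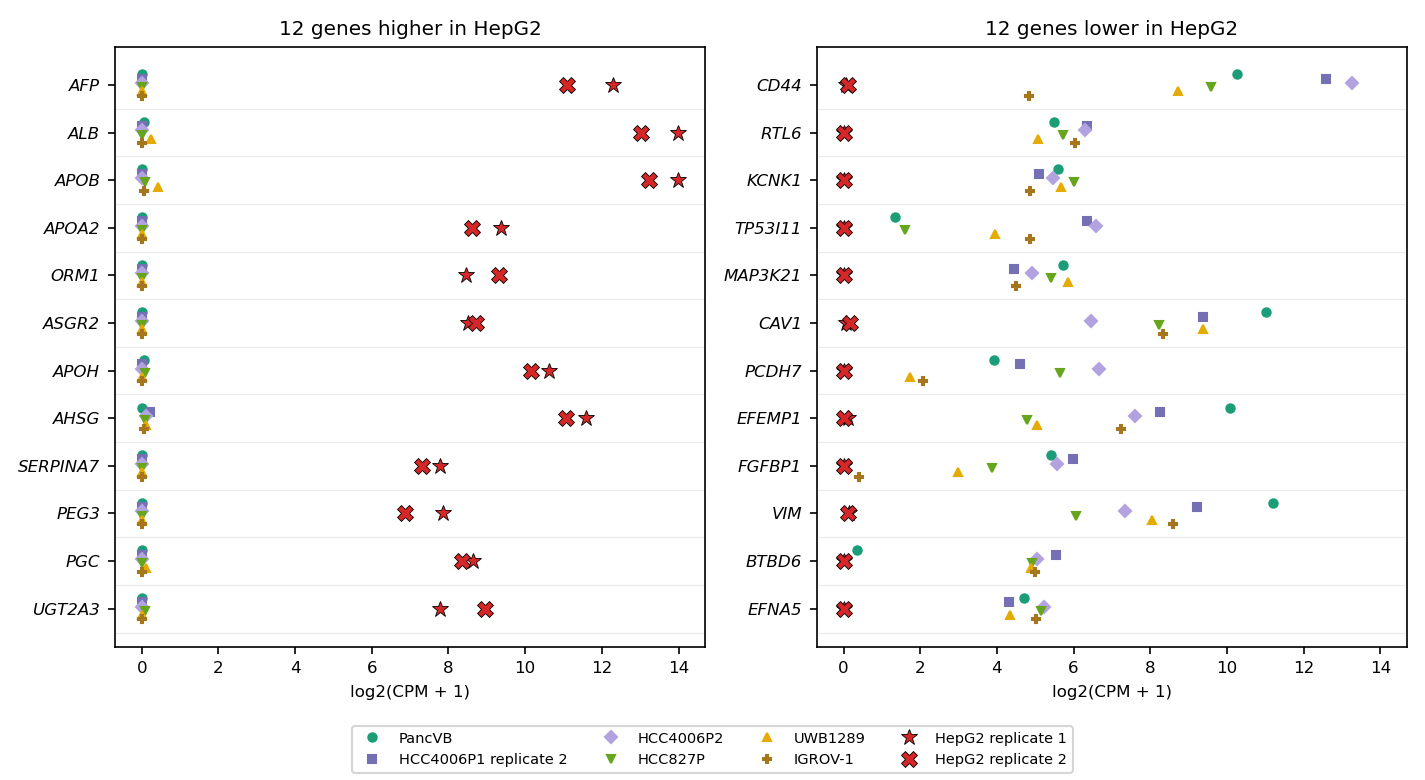
Levels of the 12 genes with the largest fitted difference in each direction, as log2(CPM + 1) on the x axis, with 1 point per library; red stars and crosses are HepG2 replicates 1 and 2. In the left panel the HepG2 points lie to the right of every other line and in the right panel, where they sit at or near 0, to the left.

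The starts of 6 chosen genes are shown, to look for letters that match sites of liver factors. Each window runs from 250 bases before to 50 bases after the start of transcription, read 5′ to 3′ on the gene's strand from RefSeq (GRCh38.p14, a later build than the hg19 of the count files). ALB, AFP, FGA (the fibrinogen alpha chain), AHSG and APOA2 were higher in HepG2, and GSTP1, a glutathione transferase described further on, was lower. Capitals mark matches to a binding motif. The motifs searched on both strands were CAAAGTCCA for HNF4, TGTTTAC for FOXA and TTGCNNAA for C/EBP, with TATAAA searched on the gene's strand only.
ALB, chr4:73404037-73404336, plus strand: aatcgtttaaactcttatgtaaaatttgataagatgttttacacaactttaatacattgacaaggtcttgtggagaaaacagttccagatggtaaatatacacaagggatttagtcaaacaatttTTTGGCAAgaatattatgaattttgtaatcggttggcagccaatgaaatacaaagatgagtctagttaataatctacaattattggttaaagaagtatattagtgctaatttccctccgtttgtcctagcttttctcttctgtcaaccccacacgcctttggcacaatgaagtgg
AFP, chr4:73435971-73436270, plus strand: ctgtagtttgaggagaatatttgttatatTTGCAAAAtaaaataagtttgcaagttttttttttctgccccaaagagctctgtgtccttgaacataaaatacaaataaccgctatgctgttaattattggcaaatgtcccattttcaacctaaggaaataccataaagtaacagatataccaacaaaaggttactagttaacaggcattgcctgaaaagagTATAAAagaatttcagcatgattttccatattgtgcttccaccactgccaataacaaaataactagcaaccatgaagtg
FGA, chr4:154590693-154590992, minus strand: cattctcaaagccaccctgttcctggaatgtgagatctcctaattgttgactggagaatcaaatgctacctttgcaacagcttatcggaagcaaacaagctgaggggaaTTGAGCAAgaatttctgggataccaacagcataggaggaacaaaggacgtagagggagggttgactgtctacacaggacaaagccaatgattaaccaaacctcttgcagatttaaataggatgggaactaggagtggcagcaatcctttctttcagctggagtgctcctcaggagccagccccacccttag
AHSG, chr3:186612810-186613109, plus strand: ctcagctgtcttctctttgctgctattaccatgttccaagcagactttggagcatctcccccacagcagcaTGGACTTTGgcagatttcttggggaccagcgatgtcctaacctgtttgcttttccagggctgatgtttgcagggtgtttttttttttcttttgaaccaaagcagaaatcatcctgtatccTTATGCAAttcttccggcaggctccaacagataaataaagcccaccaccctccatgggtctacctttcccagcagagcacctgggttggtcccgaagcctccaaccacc
APOA2, chr1:161223579-161223878, minus strand: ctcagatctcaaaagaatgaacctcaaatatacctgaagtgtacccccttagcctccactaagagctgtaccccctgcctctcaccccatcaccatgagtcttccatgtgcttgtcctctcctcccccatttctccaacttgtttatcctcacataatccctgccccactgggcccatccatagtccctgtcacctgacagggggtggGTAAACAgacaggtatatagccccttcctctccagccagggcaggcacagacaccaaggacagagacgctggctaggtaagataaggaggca
GSTP1, chr11:67583562-67583861, plus strand: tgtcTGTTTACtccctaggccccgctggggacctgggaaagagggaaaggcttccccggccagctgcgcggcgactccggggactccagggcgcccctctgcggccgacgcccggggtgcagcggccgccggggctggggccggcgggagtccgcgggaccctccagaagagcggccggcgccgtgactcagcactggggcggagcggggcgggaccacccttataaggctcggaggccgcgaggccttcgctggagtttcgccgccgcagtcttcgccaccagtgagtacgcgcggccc

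The ALB window held the C/EBP letters, on the opposite strand, 125 bases before the start. The AFP window held C/EBP at 221 bases and a TATA box at 29 bases before the start. FGA had C/EBP at 141 bases, on the opposite strand. AHSG had HNF4 at 179 and C/EBP at 59 bases, also on the opposite strand, and APOA2 had FOXA at 42 bases. The GSTP1 window held a FOXA match at 246 bases before its start. Among all 35116 windows of the same length, 0.384% held the HNF4 motif, 3.42% FOXA, 10.5% C/EBP and 7.33% the TATA box. The windows shown are a chosen set, and matches were not counted over all genes called higher. Whether the motifs are more frequent in those genes was therefore not tested. The 5 windows of higher genes had between 1 and 4 CpG pairs and a GC content of 33.0% to 53.0%, whereas that of GSTP1 had 36 CpG pairs and 74.0% GC. A match is a run of letters, and binding was not measured.

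Of 24 hepatocyte transcription factors, 23 were tested and 10 were called higher (43.5%, against 6.51% of all genes). HNF4A, a nuclear receptor at the centre of the hepatocyte network, was at 226 and 211 CPM in HepG2 and at most 0.109 CPM elsewhere, a log2 difference of 7.74 ± 0.05 (edgeR adjusted p = 4.21e-05). NR1H4, the bile acid receptor FXR, was at 86.1 and 64.5 CPM and had no count in the other lines, at least 250-fold higher. NR0B2, the repressor SHP that FXR induces, was at 79.8 and 61.3 CPM against at most 0.086 CPM. PROX1, a homeobox factor of early liver, was at 206 and 208 CPM against 0 to 1.81 CPM. The drug-sensing receptor NR1I2 (PXR) with 19.7 and 18.7 CPM, ONECUT1 with 5.10 and 7.43 CPM and CREB3L3 with 9.96 and 10.6 CPM were also called, and no other line passed 0.221 CPM in any of these 3.

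CEBPA and ONECUT2 were called as well, but lost the call when the HepG2 libraries were summed. CEBPA, a factor of mature hepatocytes, was at 101 and 82.3 CPM, above a range of 0.184 to 4.92 CPM in the other lines (median 0.97), and its edgeR adjusted p of 0.00902 became 0.0507, within a range of 2.01e-06 to 0.0544 over all alternatives. The FOXA pioneer factors of the liver were not called. FOXA1 was at 99.7 and 82.5 CPM within an other-line range of 2.67 to 159 CPM (edgeR adjusted p = 0.453). FOXA2 (42.8 and 37.6 CPM, others up to 15.8) and FOXA3 (45.6 and 21.1 CPM, others up to 12.9) lay above every other line without passing the test, with edgeR adjusted p = 0.168 and 0.229. NR5A2, which drives bile acid genes, was at 0.682 and 1.41 CPM, near the low end of an other-line range of 0.602 to 40.3 CPM.

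Plasma carriers of the albumin family and their like (17 members, 15 tested) were called higher in 14 (93.3%, against 6.51% of all genes). Their summed level was 32297 and 20061 CPM in HepG2 against 1.13 to 12.3 CPM in the other lines. Transferrin (TF), the iron carrier, was at 5583 and 4576 CPM against at most 1.06 CPM, a log2 difference of 11.83 ± 0.20 (edgeR adjusted p = 4.21e-05). AMBP, the precursor of alpha-1-microglobulin and bikunin, was at 1166 and 1261 CPM against at most 0.655 CPM. The retinol carrier RBP4 was at 383 CPM in both libraries, and the thyroid hormone carrier TTR at 61.6 and 48.0 CPM. A1BG, at 16.7 and 19.5 CPM with others up to 5.44 CPM, was the tested member that was not called (edgeR adjusted p = 0.111). GC, the vitamin D-binding protein, was at 0.191 and 2.73 CPM and failed the filter on low counts.

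Of 21 apolipoprotein and lipoprotein genes, 20 were tested and 17 called higher (85%, against 6.51% of all genes), 12 of them also with HepG2 summed. APOA1, the main protein of high density lipoproteins, was at 641 and 546 CPM against at most 0.182 CPM (log2 difference 9.13 ± 0.12, edgeR adjusted p = 4.45e-05). APOE, a ligand of lipoprotein receptors, was at 856 and 1399 CPM with others at 0.23 to 14.3 CPM, and the lipase cofactor APOC2 at 163 and 147 CPM with others up to 0.0728 CPM. MTTP, which loads lipid onto APOB, was at 27.2 and 17.9 CPM with others up to 0.728 CPM.

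Coagulation genes numbered 25, of which 22 were tested and 17 called higher (77.3%, against 6.51% of all genes). With HepG2 summed 10 remained above the threshold. Prothrombin (F2) was at 428 and 349 CPM against 0 to 4.00 CPM in the other lines, a log2 difference of 8.15 ± 0.40 (edgeR adjusted p = 0.0101). Antithrombin (SERPINC1), the main inhibitor of thrombin, was at 89.5 and 90.1 CPM against at most 0.138 CPM, and heparin cofactor SERPIND1 at 375 and 260 CPM against at most 1.10 CPM. The 3 fibrinogen chains were all high in HepG2. FGA was at 884 and 1470 CPM, FGG at 958 and 1443 CPM and FGB at 309 and 584 CPM. In the other lines HCC827P had the highest value of each, at 2.31, 6.11 and 58.7 CPM, and FGB was not called (edgeR adjusted p = 0.183). Factor IX (F9) was close to the detection limit at 0.0546 and 0.115 CPM, and plasminogen (PLG), at 0.491 and 1.58 CPM, was not called (edgeR adjusted p = 0.228). F12, at 2.16 and 2.15 CPM, lay inside an other-line range of 1.5 to 10.6 CPM.

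Complement and acute phase genes had 30 members, 26 tested and 15 called higher (57.7%, against 6.51% of all genes), or 6 with HepG2 summed. The inter-alpha-trypsin inhibitor chains ITIH2 (3488 and 3366 CPM) and ITIH3 (425 and 434 CPM) had at most 0.255 CPM elsewhere, with edgeR adjusted p = 1.65e-05 for each. Complement C5 was at 572 and 777 CPM against 1.67 to 27.6 CPM (log2 difference 6.35 ± 0.54, edgeR adjusted p = 0.00201). The protease inhibitors SERPINA1 (7603 and 10023 CPM, others 0 to 320) and SERPINA3 (3288 and 5769 CPM, others 0 to 61) were called, with edgeR adjusted p = 0.034 and 0.0441, and were not called with HepG2 summed (edgeR adjusted p = 0.135 and 0.155). Over all alternatives these p-values ran from 0.000559 to 0.15 and from 0.0247 to 0.179. C3 was at 5106 and 6772 CPM, but PancVB and UWB1289 also had 400 and 513 CPM, and it was not called (edgeR adjusted p = 0.109). Of the inflammatory markers, CRP and SAA1 had no count in either HepG2 library. C4A and C4B are near-identical copies, and how their reads were divided is uncertain.

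**Figure D2:**
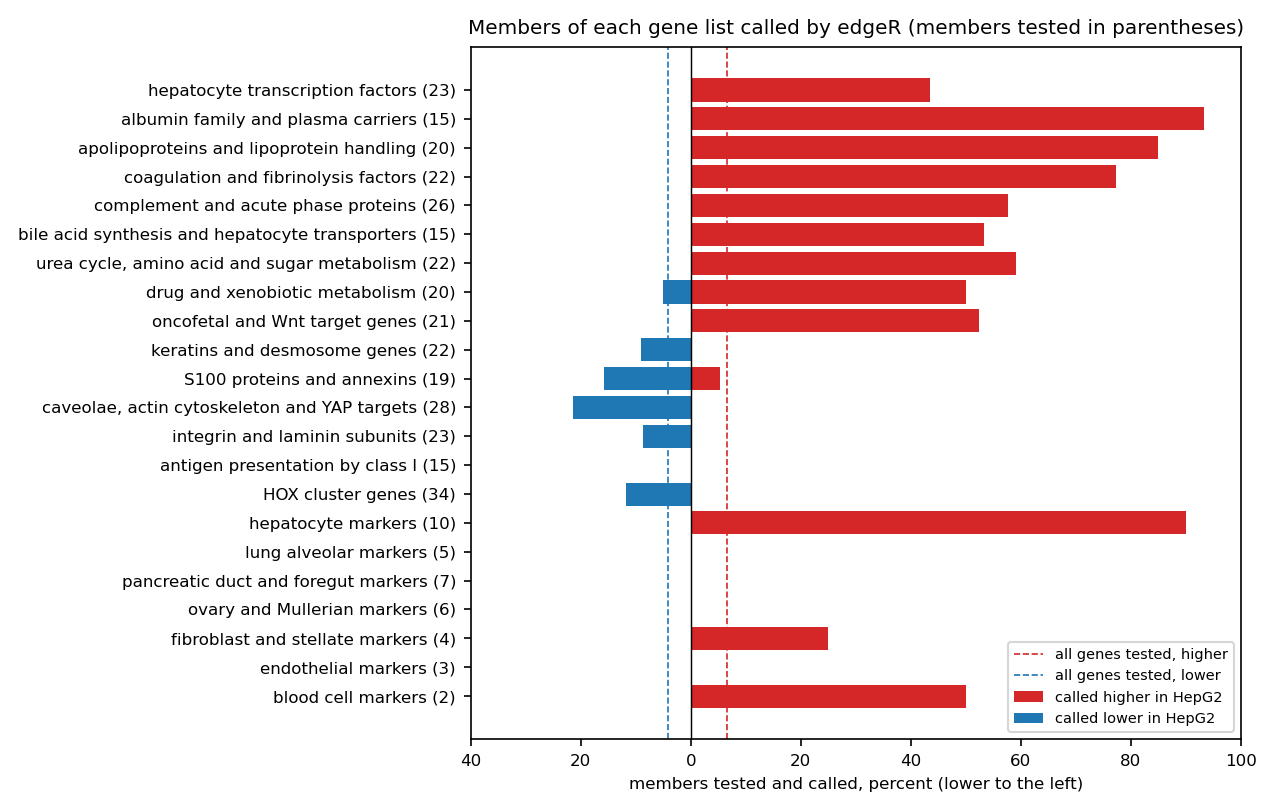
Share of the tested members of each gene list (numbers in parentheses) that edgeR called higher in HepG2, in red to the right, or lower, in blue to the left; dashed lines give the share over all genes tested. The share called higher is 93.3% for the albumin list. The largest share called lower is 21.4%, for the list of caveolae, actin cytoskeleton and YAP target genes. The lists were chosen with earlier results of these data known.

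Genes of bile acid synthesis and hepatocyte transport were called higher in 8 of 15 tested members (53.3%, against 6.51% of all genes tested), out of 21. CYP27A1, a sterol hydroxylase of the alternative bile acid pathway, was at 185 and 145 CPM against 0.103 to 1.69 CPM (log2 difference 6.83 ± 0.26, edgeR adjusted p = 0.000567). FGFR4 and KLB, the receptor and coreceptor of the gut hormone FGF19, were at 296 and 256 CPM and at 131 and 64.1 CPM, against at most 19.2 and 6.77 CPM. The phospholipid exporter ABCB4 (28.6 and 18.9 CPM) and the glucose carrier SLC2A2 (31.6 and 37.9 CPM) were called too. ABCC2, which exports conjugated bilirubin, was at 559 and 452 CPM with others at 1.23 to 83.7 CPM, and was not called (edgeR adjusted p = 0.0562).

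The rate-limiting enzyme of the main bile acid pathway was near the detection limit, and several other list members with roles in adult liver, picked here after their values were seen, were under 0.5 CPM. CYP7A1 was at 0.109 and 0.0861 CPM, the bile acid importer SLC10A1 at 0.137 and 0.0574 CPM and the bile salt exporter ABCB11 at 0.0273 and 0.0861 CPM. In the urea cycle, OTC was at 0.0273 and 0.0287 CPM and ARG1 at 0.30 and 0.402 CPM, while ASS1 was at 154 and 191 CPM and CPS1 at 61.8 and 42.9 CPM. The gluconeogenic enzyme FBP1 (0.0546 and 0.115 CPM) was as low. The genes named here with levels under 0.5 CPM did not pass the filter on low counts and were not tested, apart from FBP1, which had up to 191 CPM in another line (edgeR adjusted p = 0.206).

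Even so, the list of urea cycle, amino acid and sugar metabolism (29 in all) had many higher calls. Of 22 tested members, 13 were called higher (59.1%, against 6.51% of all genes), or 8 with HepG2 summed. HPD, an enzyme of tyrosine breakdown, was at 249 and 289 CPM against at most 0.43 CPM (log2 difference 7.68 ± 0.11, edgeR adjusted p = 3.64e-06). MAT1A, the liver form of the enzyme that makes S-adenosylmethionine, was at 107 and 85.5 CPM against at most 0.40 CPM. The mitochondrial PCK2 was at 392 and 465 CPM with others at 11.8 to 86.3 CPM, and the cytosolic PCK1, also called higher, was at 1.61 and 0.918 CPM with no count in the other lines (edgeR adjusted p = 0.0195, 0.167 with HepG2 summed, and 0.00364 to 0.18 over all alternatives).

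Drug metabolism genes, 36 in all, were called upward in 10 of 20 tested members (50%, against 6.51% of all genes tested). Downward, 1 was called (5%, against 4.08%). SULT2A1, a steroid sulfotransferase, was at 216 and 106 CPM against at most 0.598 CPM (log2 difference 6.83 ± 0.51, edgeR adjusted p = 7.97e-05). ADH4, an alcohol dehydrogenase, was at 23.8 and 61.9 CPM, and UGT2B10, a glucuronosyltransferase, at 68.1 and 47.4 CPM, with others up to 0.0364 and 0.0735 CPM. Reads of the UGT2B genes may be shared between close copies. The fetal cytochrome CYP3A7 was at 32.0 and 13.1 CPM and was called, while its adult neighbour CYP3A4 was at 0.437 and 0.488 CPM. The adult cytochrome CYP2C8 was at the detection limit or below (0.0819 and 0 CPM), and CYP2E1, at 0.60 and 0.803 CPM with others at 0.598 to 7.57 CPM, was not called (edgeR adjusted p = 0.311).

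The downward call among them was GSTP1 (ENSG00000084207), the glutathione transferase that hepatocytes make little of. It was at 0.137 and 0.201 CPM in HepG2 and between 175 and 372 CPM in all 6 other lines, with a median of 224 CPM. The log2 difference was −7.68 ± 0.18, the mean of the others was 1471 times that of HepG2, and the call held with HepG2 summed (edgeR adjusted p = 4.21e-05, and 0.00205 summed, within a range of 5.76e-68 to 0.00224 over all alternatives).

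Oncofetal and Wnt target genes were called higher in 11 of 21 tested members (52.4%, against 6.51% of all genes), out of 22. GPC3, a fetal heparan sulfate proteoglycan used as a liver tumour marker, was at 4346 and 3688 CPM against 0 to 6.69 CPM (log2 difference 11.36 ± 0.50, edgeR adjusted p = 0.00999). IGF2, a fetal growth factor, was at 1180 and 1875 CPM against 0.327 to 5.02 CPM. H19, the imprinted RNA that lies beside IGF2, was at 0.791 and 0.172 CPM, inside the other-line range of 0 to 1.71 CPM. LIN28B, an RNA-binding protein of fetal cells, was at 116 and 157 CPM against at most 1.46 CPM, and its call was lost with HepG2 summed (edgeR adjusted p = 0.0569, range 0.00229 to 0.0665).

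Feedback inhibitors of Wnt signalling, which are themselves targets of beta-catenin, were high in both HepG2 libraries. NKD1 was at 437 and 439 CPM against at most 3.17 CPM (log2 difference 8.36 ± 0.33, edgeR adjusted p = 0.00557), and NOTUM, a secreted Wnt deacylase, at 448 and 508 CPM against at most 5.68 CPM. AXIN2 was at 181 CPM in both libraries against at most 5.48 CPM, and ZNRF3, which removes Wnt receptors, at 180 and 142 CPM against 13.8 to 37.6 CPM. LGR5 (82.9 and 75.8 CPM), RNF43 (125 and 152 CPM) and TBX3 (161 and 203 CPM) lay above every other line and were not called, with edgeR adjusted p = 0.109, 0.0794 and 0.112. GLUL, glutamine synthetase, was at 529 and 370 CPM and overlapped an other-line range of 57.1 to 438 CPM. The Wnt transcription factor LEF1 was at 0.191 and 0.172 CPM.

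**Figure D3:**
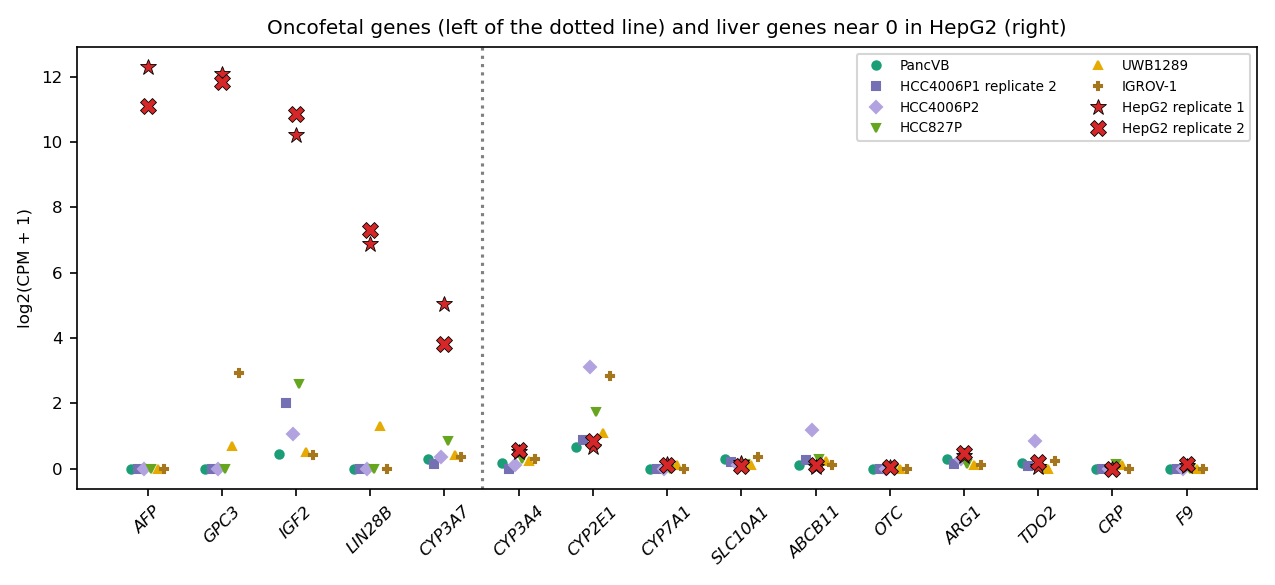
Levels of 5 fetal genes and 10 genes of adult liver that were near 0 in HepG2, as log2(CPM + 1) on the y axis with 1 point per library; the genes were chosen for display after their values were seen. Both HepG2 libraries lie above every other line in AFP, GPC3, IGF2, LIN28B and CYP3A7, and at or below 0.803 CPM in the rest.

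Levels of different genes can be compared roughly per length, here as CPM per kb of exon. The length joins all annotated exons of a gene and is not that of a single transcript, so ranks depend on the annotation. On that scale ALB was the 8th most abundant tested gene in HepG2, with 3551 CPM per kb as the mean of both libraries. Further down, SERPINA1 was at 1798, GPC3 at 1224, AHSG at 1168, AFP at 1126 and APOB, a far longer gene, at 873 CPM per kb. Among genes that were on no list, named after their values were seen, the ferritin light chain FTL was at 6782 CPM per kb, fibronectin FN1 at 910 and the protease inhibitor A2M at 824. FTL has many processed copies, so its count is uncertain. In CPM, FN1 was at 16759 and 14586 in HepG2 against 29.7 to 1169 in the other lines (log2 difference 6.76 ± 0.72, edgeR adjusted p = 0.0119).

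Downward, 3 of the 12 genes with the largest fitted differences were CD44, CAV1 and VIM. CD44, the hyaluronan receptor (chromosome 11, 35160429 to 35253949), was at 0.0546 and 0.0861 CPM in HepG2 and ranged from 27.6 CPM in IGROV-1 through a median of 994 to 9870 CPM in HCC4006P2, a log2 difference of −9.78 ± 1.24 (edgeR adjusted p = 0.0225). CAV1, the main coat protein of caveolae (chromosome 7, 116165048 to 116201233), was at 0.0546 and 0.115 CPM against 86.6 to 2087 CPM (median 492), a log2 difference of −8.68 ± 0.63 (edgeR adjusted p = 0.00421). VIM, the intermediate filament protein vimentin, was at 0.109 and 0.0861 CPM against 65.6 in HCC827P to 2332 CPM in PancVB (median 323), a log2 difference of −8.27 ± 0.71 (edgeR adjusted p = 0.00975). Each was at 27.6 CPM or more in all 6 other lines and at or near the detection limit in HepG2. All 3 lost the call when HepG2 was summed (edgeR adjusted p = 0.197, 0.0657 and 0.115), and over all alternatives their p-values reached from 8.78e-20 to 0.206, from 8.95e-26 to 0.0664 and from 4.1e-21 to 0.124.

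Another 8 of the 12 genes had no count in either HepG2 library. RTL6, a gene derived from a retrotransposon, was at 32.4 to 80.7 CPM in the other lines, so that HepG2 was at least 376-fold lower. KCNK1, a potassium channel, was at 28.3 to 62.9 CPM (at least 328-fold lower), MAP3K21, a kinase of the mixed lineage family, at 20.8 to 57.2 CPM (at least 241-fold lower) and EFNA5, an ephrin ligand, at 19 to 36.7 CPM (at least 220-fold lower). These 4 genes kept the call with HepG2 summed. The protocadherin PCDH7, TP53I11, FGFBP1 and BTBD6 lost it. BTBD6 was at 0.276 CPM in PancVB, and FGFBP1 at 0.327 CPM in IGROV-1. EFEMP1, a matrix fibulin, had 0.0819 CPM and 0 in HepG2 and a median of 172 CPM elsewhere.

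Of 28 genes of caveolae, the actin cytoskeleton and YAP targets, all tested, 6 were called lower (21.4%, against 4.08% of all genes), and 1 with HepG2 summed. Beside CAV1, VIM and CD44 these were CAV2 (0.246 and 0.402 CPM against 74.0 to 334), the caveolar ATPase EHD2 (1.77 and 1.64 CPM against 29.0 to 156) and the actin-binding TAGLN2 (33.7 and 47.7 CPM against 275 to 709). CAV1, VIM and CD44 had already been picked above for large fitted differences, and the list was chosen with earlier results of these data known. Its share is therefore no independent support. CAV2 kept its call with HepG2 summed (log2 difference −7.25 ± 0.32, edgeR adjusted p = 0.000443 and 0.0113 summed). The caveolar coat gene CAVIN1 was still present at 68.7 and 56.4 CPM and was not called. The YAP targets CCN1, CCN2, ANKRD1, AMOTL2 and AJUBA were not called. CCN2 was at 529 and 544 CPM, inside an other-line range of 0.837 to 591 CPM, and ANKRD1 and AJUBA were at 278 and 113 CPM and at 342 and 319 CPM. The median log2 difference of the list was −1.25, against −0.29 over all tested genes.

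S100 proteins and annexins, both calcium-binding families, had 23 members. Of 19 tested, 3 were called lower (15.8%, against 4.08% of all genes) and 1 higher (5.26%, against 6.51%). ANXA1 was at 0.109 and 0.459 CPM against 318 to 1267 CPM in the other lines, a log2 difference of −8.87 ± 0.36 (edgeR adjusted p = 0.000946). ANXA2 (117 and 90.7 CPM against 640 to 2691) and its partner S100A10 (52.3 and 40.4 CPM against 146 to 459) were both called, and ANXA1 alone kept the call with HepG2 summed. S100P went the other way, at 138 and 259 CPM against 0 to 3.75 CPM (edgeR adjusted p = 0.0124, and 0.0646 with HepG2 summed, within a range of 0.00139 to 0.0851).

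Keratins and desmosome genes were called lower in 2 of 22 tested members (9.09%, against 4.08% of all genes), out of 26. KRT7, a keratin of ducts and many simple epithelia, was at 0.628 and 1.43 CPM against 204 to 2543 CPM, a log2 difference of −9.30 ± 0.61 (edgeR adjusted p = 0.00233). KRT80 was at 15 and 12.3 CPM against 95.1 to 361 CPM. KRT8 and KRT18, the keratin pair of hepatocytes, were at 1105 and 1375 CPM and at 723 and 887 CPM, inside the ranges of the other lines, and KRT19 at 220 and 473 CPM was too. Desmoplakin (DSP) lay above every other line at 1121 and 1197 CPM and was not called (edgeR adjusted p = 0.0861).

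Integrin and laminin subunits were called lower in 2 of 23 tested members (8.70%, against 4.08% of all genes). None was called with HepG2 summed, where 0.503% of all genes were lower. DESeq2 on all 8 libraries called 10 lower, against 15% of all genes it tested. Among those that edgeR called was the hemidesmosome collagen COL17A1 (0.109 and 0.0861 CPM against 2.15 to 143). The epithelial laminin chains LAMA3 and LAMB3 were at 9.01 and 19.1 CPM and at 0.60 and 12.1 CPM, against medians of 155 and 313 CPM, without being called. Chains of other laminins were within the ranges of the other lines, with LAMB1 at 604 and 531 CPM (others 81.2 to 614) and LAMC1 at 483 and 477 CPM (others 253 to 852).

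HOX genes, which mark position along the body axis, were called lower in 4 of 34 tested members (11.8%, against 4.08% of all genes), out of 39. None was called with HepG2 summed, where 0.503% of all genes were lower. DESeq2 called 19 lower, against 15% of all genes it tested. The 4 that edgeR called were HOXB3, HOXB4, HOXB9 and HOXB13. Each had no count in either HepG2 library, with lowest values in the other lines between 0.115 and 1.98 CPM. HOXB2, HOXB5 and HOXB6 also had no count in HepG2, with maxima of 14.5, 14.2 and 42.0 CPM elsewhere, and HOXB8 had 0 and 0.0287 CPM. In the HOXA cluster, HOXA3 was at 10.7 and 10.6 CPM and HOXA5 at 3.88 and 4.85 CPM, near the other lines. Their summed level was 40.1 and 29.1 CPM in HepG2 against 42.9 to 344 CPM.

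Among 15 genes of antigen presentation by class I, all tested, edgeR and DESeq2 called 0, and 0 had an unadjusted p under 0.05. Over all genes edgeR called 6.51% higher and 4.08% lower. B2M, the light chain, was at 371 and 387 CPM against 187 to 1203 CPM.

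**Figure D4:**
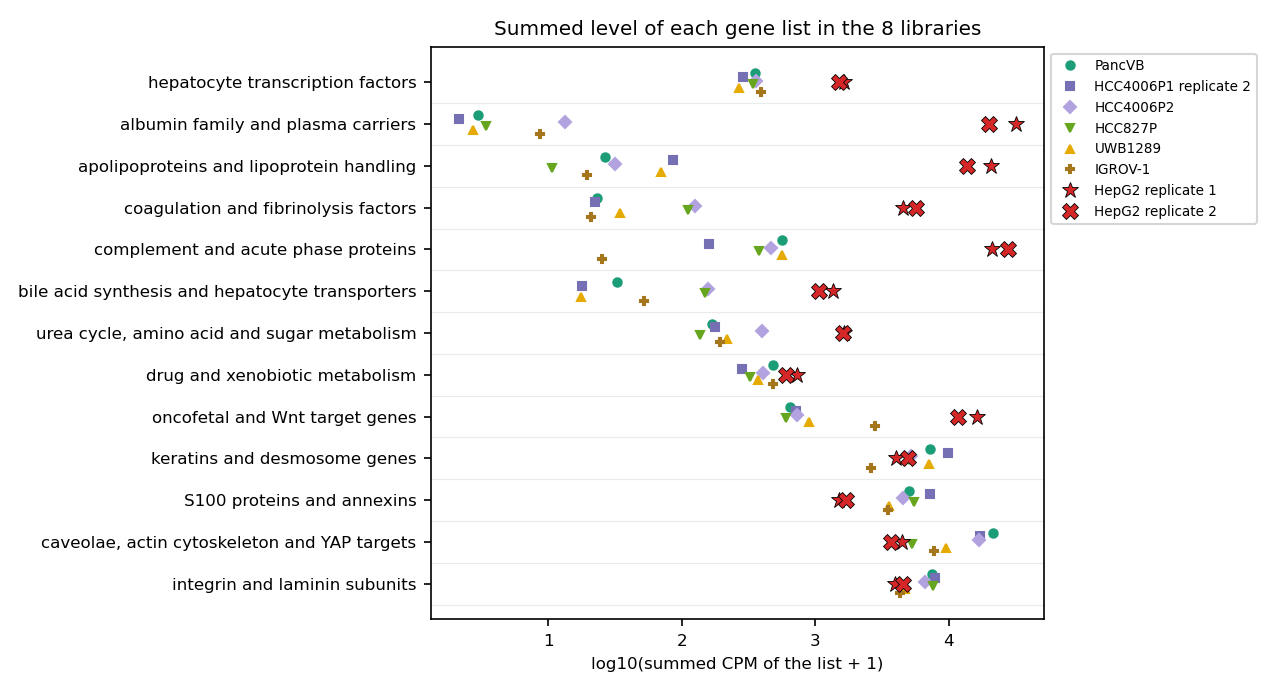
Summed level of each gene list, as log10 of the summed CPM + 1 on the x axis, with 1 point per library. The HepG2 libraries lie to the right of every other line in the liver and oncofetal lists, and to the left in the S100 and caveolae lists.

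The tissue labels were set beside cell type markers, whose lists were chosen with earlier results of these data known. ALB, APOA2, APOH and AHSG were also picked above for large fitted differences, so the hepatocyte list is no separate check. All 10 hepatocyte markers lay above every other line (against 12.5% of all genes) and 9 were called, with a summed level of 31396 and 24586 CPM in HepG2 and 1.06 to 320 CPM in the others. Lung, pancreatic and ovarian markers were low in HepG2, with summed levels of 0.791 and 8.61 CPM, 7.12 and 13.5 CPM, and 20.9 and 25.9 CPM. edgeR called 0 of the 5, 7 and 6 tested members of these lists, with 2, 1 and 3 at an unadjusted p under 0.05. DESeq2 called 3, 3 and 4 lower, against 15% of all genes it tested. In the other lines the markers followed the labels only in part. Lung markers summed to 3360 CPM in HCC4006P2, 127 in HCC827P and 2.36 in HCC4006P1, against 140 in UWB1289 and 138 in IGROV-1. Pancreatic markers summed to 67.1 CPM in PancVB and to 8781 in HCC4006P2. Ovarian markers summed to 565 CPM in UWB1289 and 846 in IGROV-1, and to 648 in HCC827P. The lung factor NKX2-1 was at 113 CPM in HCC4006P2 and 56.0 CPM in HCC827P but had no count in HCC4006P1, and the pancreatic factor PDX1 was at 0.184 CPM in PancVB. PAX8, of Mullerian epithelium, was at 357 and 664 CPM in UWB1289 and IGROV-1.

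Among markers of non-epithelial cells edgeR called 2 higher, LYZ and PDGFRB. The summed levels in HepG2 were 2031 and 1159 CPM for the blood cell list (others 5.13 to 133), 36.1 and 15.2 CPM for the fibroblast and stellate list (others 7.32 to 29.4), and 1.67 and 1.49 CPM for the endothelial list (others 0.231 to 49.5). LYZ, lysozyme, best known from myeloid cells, was at 1987 and 1118 CPM against at most 1.06 CPM (log2 difference 9.95 ± 0.43, edgeR adjusted p = 1.76e-05), while the leukocyte marker PTPRC was at 0.0273 and 0.0287 CPM, CD3E, MS4A1 and HBB had no count in any of the 8 libraries, and CD68 at 43.9 and 41.3 CPM was inside the other-line range. PDGFRB, a receptor of stellate cells and pericytes, was at 13.9 and 2.24 CPM against at most 0.40 CPM (edgeR adjusted p = 0.00256), while DCN and LUM were at or below 0.0287 CPM and COL1A1, at 21.3 and 12.1 CPM, was inside the other-line range. The part of such cells in the results was not tested. Of 3 tested endothelial markers edgeR called 0, with 1 at an unadjusted p under 0.05 and 1 called lower by DESeq2, and KDR had no count in HepG2.

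Called genes were also neighbours on the chromosome. There were 27 runs of at least 3 adjacent tested genes called higher, with 96 of the 1189 genes called higher. How many runs scattered calls would give was not computed in either direction. The longest was the serpin cluster of chromosome 14 (hg19, 94746797 to 95090392), where SERPINA10, SERPINA6, SERPINA1, SERPINA11, SERPINA12, SERPINA4, SERPINA5 and SERPINA3 were all called. SERPINA11 was at 71.2 and 38.3 CPM and had no count elsewhere, and SERPINA5, which overlaps SERPINA4 in the annotation, was at 549 and 511 CPM. A run of 5 genes on chromosome 2 held ROCK2, PPIAP60, LINC03037, E2F6 and GREB1, and another of 5 on chromosome 4 held UGT2B genes and SULT1E1. Shorter runs included APOA5, APOA4, APOC3 and APOA1 on chromosome 11 and ALB, AFP and AFM on chromosome 4. Others were APOE, APOC1 and APOC2 on chromosome 19, and F7, F10, KARS1P2 and PROZ on chromosome 13. Runs with no gene of the lists included TRIB3, RBCK1 and TBC1D20 on chromosome 20, and DCBLD1, GOPC and NUS1 on chromosome 6.

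Lower calls formed 7 runs with 22 genes, the longest of 4 genes. This was PCNX2, MAP3K21, KCNK1 and SLC35F3 on chromosome 1 (233119181 to 234460257). PCNX2 was at 0.546 and 1.06 CPM against 16.7 to 56.1 CPM, SLC35F3 had no count in HepG2 against 0.146 to 23.5 CPM, and the middle pair are given above as having no count. A run on chromosome 13 held IRS2 and the overlapping basement membrane collagen genes COL4A1 and COL4A2. COL4A2 was at 0.791 and 0.316 CPM against 3.87 to 821 CPM. RTL8B, RTL8C and RTL8A formed a run on chromosome X, and their reads may be shared, since they are close copies.

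Differences were also described by chromosome, with no test. Over 14377 protein-coding genes the median log2 difference was −0.26, and 7.14% were called higher and 4.35% lower. On chromosome 20, where HNF4A lies, the median over 384 genes was 0.36, with 0.37 in each HepG2 library against −0.18 to 0.11 when every other library was set against the rest, and 14.3% of genes were called higher. Chromosome 6 had a median of 0.22 over 731 genes (other lines −0.20 to 0.05) and 11.5% called higher. Chromosomes 16 and 2 had medians of 0.16 and 0.11 and 12.5% and 12.2% called higher. On these values, which carry the HepG2 median of −0.26 over all chromosomes, both lay inside the ranges of the other lines. Those ranges were −0.27 to 0.42 on 16 and −0.27 to 0.19 on 2, and the place of HepG2 in them depends on the scaling. Chromosome X had the lowest median on the same scale, at −0.72 (other lines −0.33 to 0.60). With TMM scaling, under which the median over all protein-coding genes was 0.0027, the HepG2 medians were 0.68 on chromosome 20, 0.52 on 6, 0.46 on 16, 0.41 on 2 and −0.49 on X, and the ranges of the other lines were computed without that scaling. DNA copy number was not measured in these files.

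**Figure D5:**
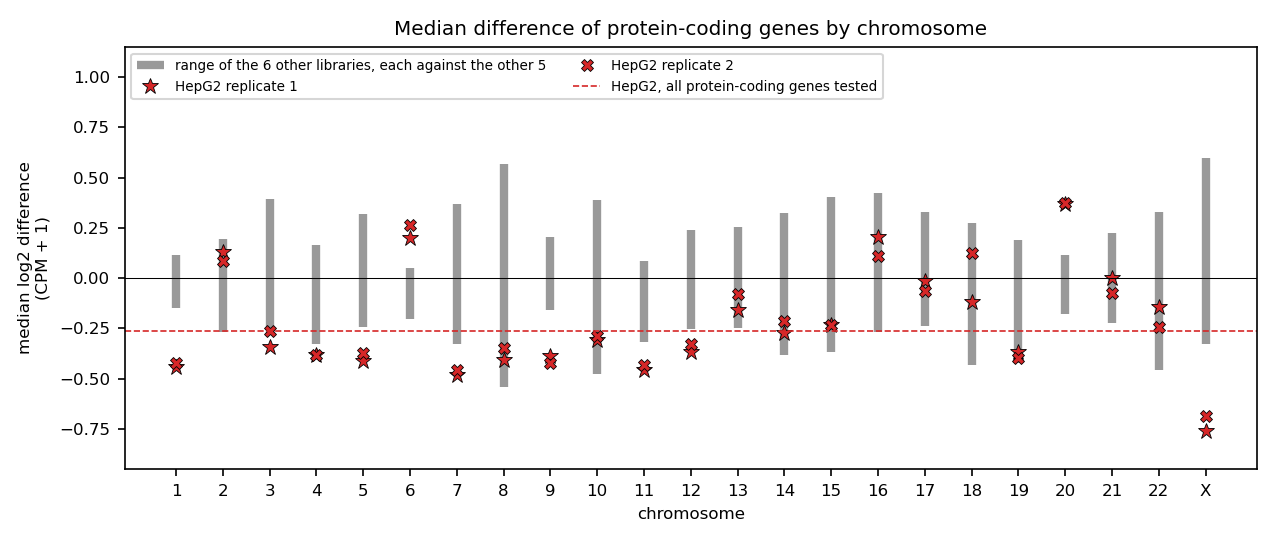
Median log2 difference of protein-coding genes per chromosome, for HepG2 replicates 1 and 2 against the 6 other libraries (star and cross); grey bars span the 6 other libraries, each set against the rest, and the dashed line is HepG2 over all protein-coding genes. The HepG2 points are highest on chromosome 20 and lowest on chromosome X.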

How the data were processed

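Poly(A)-selected RNA of 8 libraries of established cell lines was compared: HepG2 replicates 1 and 2 and 6 other parental libraries. The authors deposited raw counts of reads per gene, per the labels made on hg19 with TopHat, Bowtie, SAMtools and HTSeq (versions not given in the sources used here) and without normalization. The labels name a KAPA stranded kit for all libraries. The study's methods also describe a 3′ kit and the STAR aligner without naming the libraries, and the use of strand in counting is not given in the sources used here. Rows that name no gene were left out of totals. Reads outside any gene were 5.24% to 14.0% of the rows' total per library, ambiguous reads 2.41% to 3.15% and reads without a unique position 20.2% to 31.9%.

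CPM were taken from total counts on genes. Of 53515 gene IDs, 45100 matched the hg19 annotation by ID (84.3%). HP, APOC4, CYP2A6, ANXA8, ITGB3, HOXB7 and PECAM1 were not analysed here. The quasi-likelihood test of edgeR 4.0.16 with TMM, filterByExpr and Benjamini-Hochberg adjustment over all tested genes gave the p-values in the text, and the scripts were tested on simulated data. Alternatives used DESeq2 1.42.0, total count sizes, no filter, a mean of at least 1 CPM, a test against a log2 fold change of 1, HepG2 or HCC4006 libraries summed to 1 sample, and each library left out. Runs used R 4.3.3 with limma 3.58.1, and Python 3.11.15 with pandas 2.3.3, numpy 2.4.6 and matplotlib 3.10.9.

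Named are list members with large fitted differences, defining markers and members against their list's direction, and the 12 genes per direction with the largest fitted difference among called, non-overlapping genes with a mean of at least 10 CPM in the higher group. Genes without a matched symbol, chromosome Y genes and XIST were not named, and some further list members are not reported here. The members and the 22 lists were chosen with earlier results of these data known. A fold against libraries all at 0 is a lower bound: the lowest library of the higher group over the highest level that 3 counts give in the libraries at 0, or for lower genes the same with the groups exchanged.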

Additional observations from a re-analysis of the deposited data

Results flagged for a closer look

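Values of the lists and of a subset of the named genes were checked for 1 of the 6 other lines far from the rest. The measure was the gap to its neighbour as a share of the whole range on the log2(CPM + 1) scale. Among 81 values, 10 were above the Dixon limit for 6 values at the 95% level. Chance gives this in about 1 of 20 groups. HCC827P was high in FGA (gap 1.0 of the range, 2.31 CPM), FGG (0.958, 6.11 CPM) and S100P (0.674, 3.75 CPM), far below HepG2 in each. IGROV-1 was high in GPC3 (0.769, 6.69 CPM) and in the summed level of oncofetal and Wnt target genes (0.742, 2812 CPM), and low in KRT7 (0.707, 204 CPM). HCC4006P2 was high in FGF19 (0.861, 134 CPM) and COL1A2 (0.661, 4.70 CPM), and HCC4006P1 replicate 2 in KRT16 (0.6305, 7.44 CPM). PancVB was low in BTBD6 (0.872, 0.276 CPM), a gene with no count in HepG2.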

How the results depend on the processing

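The counts of calls rest on treating both HepG2 libraries as replicates. With them summed to 1 sample, which is then assumed to vary like the other lines, 394 genes were higher and 101 lower, 392 and 100 of them called in both fits. Leaving out 1 library gave 397 to 1405 higher genes and 100 to 1096 lower ones. Without HepG2 replicate 1 there were 401 and 155, and without HepG2 replicate 2 there were 397 and 100. A test against a log2 fold change of 1 left 693 higher and 412 lower. DESeq2 called 1706 higher and 2651 lower, total count sizes gave 872 and 1009, and no filter 1145 and 499. Genes above every other line numbered 801, and genes below every other line 656, with a margin of 2-fold on CPM + 1. With TMM library sizes they were 3288 and 2873, and with 1 library left out 2392 to 2838 and 4378 to 5075. A subset of the named genes, taken mostly for the largest fitted differences, was followed through the alternatives, and other named genes are not in these counts. Of its 57 called genes, 39 kept the call with HepG2 summed. All 57 kept it with total count sizes, without the filter and without IGROV-1. DESeq2 kept 53 of the 53 it gave a p and added 19 calls among 29 that were uncalled. None of these 57 genes changed direction under these alternatives. The balance of the counts did: lower calls outnumbered higher ones with DESeq2 and with total count sizes, and genes above outnumbered genes below with TMM sizes. No paired analysis was possible, because no library of another line is matched to a HepG2 library. The main fit took the HCC4006 stocks as separate samples, although they are stocks of 1 line. With them summed to 1 sample, 1128 genes were higher and 643 lower. Counting depth limits values under about 0.0819 CPM in HepG2 and 0.258 CPM in UWB1289.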

Other observations

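The libraries that the labels give as sorafenib-resistant derivatives of HepG2 entered no comparison here, and their origin was not checked here. The libraries labelled HepG2S1, HepG2S3 replicate 1 and HepG2S3 replicate 2 had ALB at 0, 7.44 and 10.9 CPM and AFP at 0, 11.7 and 3.23 CPM. VIM was at 1215, 1137 and 1094 CPM, CAV1 at 128, 157 and 170.3 CPM, and KRT7 at 2733, 2739 and 3086 CPM. RTL6, which had no count in HepG2, was at 42.4, 56.5 and 56.1 CPM, and KCNK1, likewise without a count in HepG2, at 28.9, 36.1 and 39.6 CPM. HCC4006P1 replicate 2 and HCC4006P2, stocks of 1 line, differed in CEACAM6 (58.6 and 7405 CPM) and NKX2-1 (0 and 113 CPM).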
